A study of Homo sapiens with 6 samples.

Results

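The 8 genes described here belong to cholesterol synthesis and its control by SREBP2. They are SREBF2, which encodes SREBP2, the SREBP regulator INSIG1, the synthesis enzymes HMGCS1, IDI1, FDFT1, SQLE and CYP51A1, and the oxysterol enzyme CH25H. They were chosen by name from the 32985 genes of the deposited table, with earlier results of these data known. All 8 were found there. Of these, 7 passed the filter on low values, which asked for an average of 1 FPKM or more across all 6 libraries, and CH25H did not. FPKM are fragments per kilobase of transcript scaled to a fixed number of mapped fragments, so they allow for gene length and for depth.

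Cells make cholesterol from acetyl-CoA through mevalonate, isoprenoids, squalene and a series of sterols. SREBP2 is made as a membrane protein of the endoplasmic reticulum. When sterols are low, SCAP carries it to the Golgi, where the site-1 and site-2 proteases (MBTPS1 and MBTPS2) release the part that enters the nucleus and turns on genes of sterol synthesis and uptake. When sterols are high, INSIG proteins hold SCAP and SREBP2 back. INSIG1 is itself a target of SREBP2 and so part of a feedback loop.

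RNA came from 8505C, an established human line of anaplastic thyroid cancer (ATC), grown in RPMI-1640 with fetal bovine serum. One group received a control siRNA (siCtrl, genotype given as WT, 3 libraries) and the other an siRNA against NUF2, a kinetochore protein of the NDC80 complex (siNUF2, genotype given as NUF2 knockdown, 3 libraries), and the labels give 24 h for both. The comparison asks which transcripts differ after NUF2 silencing. It rests on 1 cell line and 1 siRNA against NUF2. Nothing in the labels says whether libraries came from separate cultures, so p-values measure the spread between these libraries, which may be technical. The labels number the libraries 1 to 3 in each group. Libraries that share a number deviated together, and the sources do not say what a number stands for.

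The libraries held 61257859 to 69755291 counts on genes, of which 5.46% to 7.06% were mitochondrial. Throughout, the 3 values of a group are given in the order of library number. NUF2 itself had 14.8, 14.5 and 12.2 FPKM in siCtrl and 1.53, 2.05 and 1.56 FPKM in siNUF2, so the targeted transcript matched the labels in each library. Of the thyroid markers looked at, 5 of 6 were in the table and 1 had a mean FPKM of at least 1. NKX2-1 ranged from 14.6 to 21.5 FPKM, whereas PAX8 stayed at or under 0.774 FPKM, and TG, which encodes thyroglobulin, was at or near 0. KRT8 (72.0 to 99.2 FPKM), KRT18 (137 to 205 FPKM) and VIM (452 to 521 FPKM) were abundant. The epithelial markers EPCAM and CDH1 stayed at or under 0.243 and 0.0227 FPKM, and PTPRC, PECAM1 and COL1A1 had mean levels under 1 FPKM. In RNA from whole cultures, fewer cells of one kind and less RNA per cell cannot be told apart.

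Short stretches of sequence are shown first, since 3 of the members carry the same word in the 3′ UTR (the untranslated end of the mRNA) and had different outcomes. Bases 2 to 8 of the antisense strand of the siNUF2 duplex, the seed by which small RNAs find partial matches, are complementary to the 7-base word TATGGAA. In the longest 3′ UTR per gene of GENCODE release 44 (GRCh38), this word is in 16.1% of the 10174 genes tested that have a 3′ UTR of at least 50 bases. It is in 58.8% of the 284 such genes that were lower in siNUF2 and in 10.3% of the 174 that were higher. IDI1, HMGCS1 and INSIG1 have 1 copy each, as has ACLY, which makes the acetyl-CoA that enters the pathway. All 4 copies lie in the last exon. They are printed with 10 flanking bases on each side, 5′ to 3′ on the mRNA strand, with the word in capitals. The copies are at chr10:1040178-1040184 in IDI1, chr17:41867537-41867543 in ACLY, chr5:43288625-43288631 in HMGCS1 (these 3 on the minus strand) and chr7:155309131-155309137 in INSIG1 (plus strand).
IDI1: tagatgagatTATGGAAtgtgtatatt
ACLY: gtatttattaTATGGAAgcatctaagt
HMGCS1: ccctctccttTATGGAAtgtgtgtttc
INSIG1: gccacagcccTATGGAAtttgcaatct

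As described with the values below, IDI1 and ACLY were lower in siNUF2, and HMGCS1 and INSIG1 did not pass the test. The sterol, lipid and interferon lists used here have 59 genes that were tested and have such a 3′ UTR. Of these, 10 hold the word, and 2 of these 10 were lower in siNUF2. Over all 10174 such genes, 1637 hold the word, and 167 of these were lower. MBTPS2 was the third of the 59 list genes to be lower, and its 3′ UTR does not hold the word. It does hold 1 copy of the last 6 bases of the word, ATGGAA. This shorter word is in 46.2% of all genes tested with such a 3′ UTR, 90.5% of the lower and 41.4% of the higher. The part of either word in any of these differences was not tested.

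A second stretch is shown because it is a binding motif of SREBP2 in the gene of SREBP2 itself. RefSeq promoters (GRCh38.p14, 250 bases before to 50 after the annotated start) were matched for 6 of the 8 members. The sterol regulatory element was searched as TCACNCCAC on both strands and was in 1.39% of the promoters of 27305 genes. Among the 6 members it was in SREBF2 only, at chr22:41832972-41832980 on the plus strand, and it is in capitals here.
SREBF2: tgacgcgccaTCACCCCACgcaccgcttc

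None of 15 matched genes of cholesterol synthesis had these letters in the same window, which says only that this spelling is not there. The CCAAT box (CCAAT, either strand), the motif of NF-Y, was in 13 of these 15 promoters and in 39.7% of all. The GC box (GGGCGG, either strand), the motif of Sp1, was in 14 of 15 and in 48.3% of all. No motif searched contains another.

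Of the 7 members tested, 1 changed between siNUF2 and siCtrl (edgeR's quasi-likelihood test, Benjamini-Hochberg adjusted p under 0.05), against 3.99% of the 11725 genes tested. That gene was IDI1, which fell to 48.3% of its siCtrl level, and 2.46% of all genes were lower and 1.53% higher by the same test. With the replicate number as a block, SQLE also passed, and then 14.5% of all genes did. In 3 of the 7 (IDI1, SQLE and INSIG1) the FPKM of the groups did not overlap, as in 23.9% of all genes. The median log2 fold change was -0.07 over the 7 members and 0.01 over all genes tested.

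**Figure D1:**
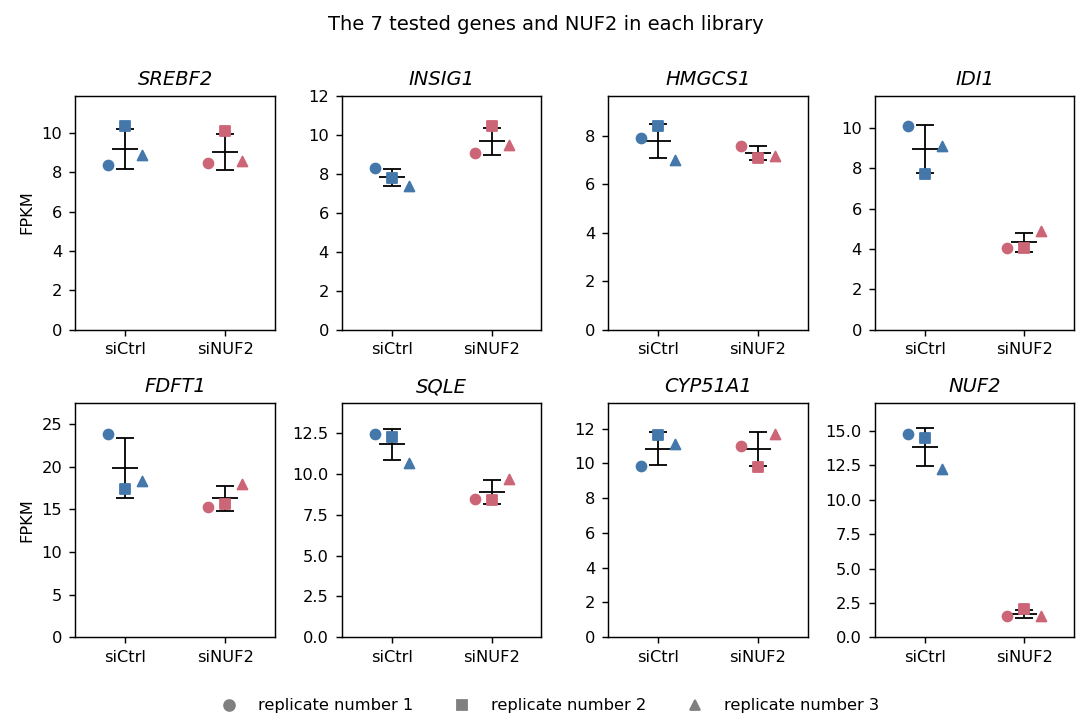
FPKM of the 7 tested members and of NUF2 in each library (points, shaped by replicate number), with the group mean and SD (bars, n = 3). IDI1 and NUF2 are clearly lower in siNUF2, SQLE is lower and INSIG1 higher with smaller gaps, and SREBF2, HMGCS1, FDFT1 and CYP51A1 overlap between the groups.

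In control cells the 7 tested members had mean levels of 7.77 to 19.9 FPKM. In order of mean siCtrl FPKM they were FDFT1 (19.9 ± 3.49, SD, n = 3), SQLE (11.8 ± 0.966), CYP51A1 (10.9 ± 0.929), SREBF2 (9.20 ± 1.02), IDI1 (8.98 ± 1.20), INSIG1 (7.84 ± 0.449) and HMGCS1 (7.77 ± 0.702). Only the siCtrl range of FDFT1 lay wholly above that of the next gene. The ranges of the other neighbouring pairs overlapped. In siNUF2 IDI1 was the lowest of the 7 (4.34 ± 0.478 FPKM). The counts behind these values were between 1364 and 9999 per gene and library, so counting error was small beside the spread between libraries.

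SREBF2 (chr22:41833079-41907307), the gene of the transcription factor, did not pass the test between the groups. It had 8.38, 10.4 and 8.87 FPKM in siCtrl and 8.45, 10.1 and 8.56 FPKM in siNUF2. The groups overlapped, and within each group library 2 was the highest. The difference on the log2 scale was -0.01 ± 0.12 (SE, adjusted p = 0.989, edgeR). SREBF2 overlaps SREBF2-AS1 on the other strand, whose mean was 1.30 FPKM, and no strand setting is given for the counting.

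INSIG1 (chr7:155297776-155310233), the sterol-sensitive anchor of SCAP, had 8.31, 7.80 and 7.41 FPKM in siCtrl and 9.11, 10.5 and 9.52 FPKM in siNUF2. Each siNUF2 library lay above each siCtrl library. This log2 difference of 0.33 ± 0.11 (SE) did not pass the test (adjusted p = 0.184, edgeR).

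HMGCS1 (chr5:43287470-43313512) makes HMG-CoA, from which mevalonate is formed. It had 7.91, 8.39 and 7.01 FPKM in siCtrl and 7.59, 7.08 and 7.18 FPKM in siNUF2. The groups overlapped, with a log2 fold change of -0.07 ± 0.10 (SE, adjusted p = 0.770, edgeR).

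IDI1 (chr10:1039152-1049170) converts isopentenyl diphosphate to dimethylallyl diphosphate, the step from which all longer isoprenoids start. It had 10.1, 7.72 and 9.12 FPKM in siCtrl and 4.05, 4.08 and 4.89 FPKM in siNUF2. The lowest siCtrl library was above the highest siNUF2 library. IDI1 fell by 1.03 ± 0.15 on the log2 scale (SE, adjusted p = 0.0101, edgeR), and it was lower in each of the 3 pairs of libraries with the same number (log2 CPM differences of -1.31, -0.88 and -0.88). Without siNUF2 library 1 the adjusted p was 0.0540, and without any other single library it was between 0.0222 and 0.0452. The paralog IDI2 and the antisense gene IDI2-AS1, which overlaps IDI1, had mean levels of 0.00445 and 0.113 FPKM.

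FDFT1, on chromosome 8, encodes squalene synthase, the first enzyme that commits the pathway to sterols. It had 23.9, 17.4 and 18.4 FPKM in siCtrl and 15.3, 15.6 and 18.0 FPKM in siNUF2. The groups overlapped, and siCtrl library 1 stood above the other 5. The log2 fold change was -0.27 ± 0.14 (SE, adjusted p = 0.377, edgeR), and without siCtrl library 1 it was -0.11 (adjusted p = 0.729).

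SQLE, also on chromosome 8, encodes squalene epoxidase, which makes the first oxygenated intermediate after squalene. It had 12.5, 12.3 and 10.7 FPKM in siCtrl and 8.48, 8.42 and 9.72 FPKM in siNUF2. All 3 siNUF2 libraries lay below the lowest siCtrl library. This fold change of -0.39 ± 0.11 on the log2 scale (SE) gave an adjusted p of 0.103 in edgeR. With the replicate number as a block the adjusted p was 0.0435, and with DESeq2 it was 0.0447. It was 0.105 in limma and 0.181 in the F-test, both on log2(FPKM + 1), and 0.287 in edgeR with no filter. Leaving out 1 library gave 0.121 to 0.299 (edgeR).

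CYP51A1 (chr7:92112153-92134803) encodes the demethylase that acts on lanosterol. It had 9.83, 11.6 and 11.1 FPKM in siCtrl and 11.0, 9.78 and 11.7 FPKM in siNUF2. The groups overlapped throughout, with a log2 fold change of 0.02 ± 0.12 (SE, adjusted p = 0.965, edgeR), and its sign turned in the fits on FPKM.

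CH25H (chr10:89205629-89207317) makes 25-hydroxycholesterol, an oxysterol that holds SREBP2 back, and is induced by interferon in many cells. Its reads were few, with 4, 4 and 3 counts in siCtrl and 0 counts in each siNUF2 library. In FPKM siCtrl had 0.0281, 0.0267 and 0.0187, and siNUF2 was at 0. The 11 siCtrl counts have an exact Poisson 95% interval of 5.49 to 19.7, which covers counting error only. A sum of 0 over the siNUF2 group allows up to 3 counts. Set against that limit, the 11 counts give a bound of 3.57-fold lower in siNUF2, per count sequenced. With the lower limit of their interval the bound was 1.78-fold. Neither bound allows for the spread between libraries. CH25H was not among the genes tested, and with no filter on low values its unadjusted p was 0.0395 and its adjusted p 0.556 (edgeR).

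The 13 interferon-stimulated genes listed with it gave a different picture. None of the 9 tested changed with the siRNA in edgeR, with or without the block, whereas 6 differed between replicate numbers, against 7.60% of all genes tested. ISG15, a ubiquitin-like protein, had 12.1, 11.8 and 77.9 FPKM in siCtrl and 10.1, 13.5 and 99.8 FPKM in siNUF2. IFIT1, IFIT2, IFIT3, OASL and IFIH1 were likewise highest in library 3 of both groups. Between the siRNAs, the highest and lowest log2 fold changes of the list were those of IFIT1 (0.49 ± 0.87, SE) and IFIH1 (-0.21 ± 0.70). Neither kept its sign, with ranges of -1.06 to 1.56 and -1.30 to 0.52 when 1 library was left out. CH25H had 3 counts in library 3 of siCtrl and 0 in library 3 of siNUF2.

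The members did not move as one group over the 6 libraries. Of the 21 pairs among the 7 tested, 11 had a positive Pearson correlation of log2 CPM, and the median was 0.02 (range -0.84 to 0.91). These correlations describe 6 libraries that share 2 treatments and 3 numbers.

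The route from acetyl-CoA to cholesterol was then read gene by gene, with 18 genes, all of which were tested. IDI1 alone passed the test without the block (1 lower, 0 higher), against 3.99% of all genes tested. With the replicate block 2 were lower (IDI1 and SQLE) and 0 higher, against 14.5% of all genes tested. In 4 of 18 (IDI1, FDPS, SQLE and MSMO1) the groups did not overlap, close to the share over all genes. Of the 18, 8 had a log2 fold change under 0, and the median was 0.03.

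**Figure D2:**
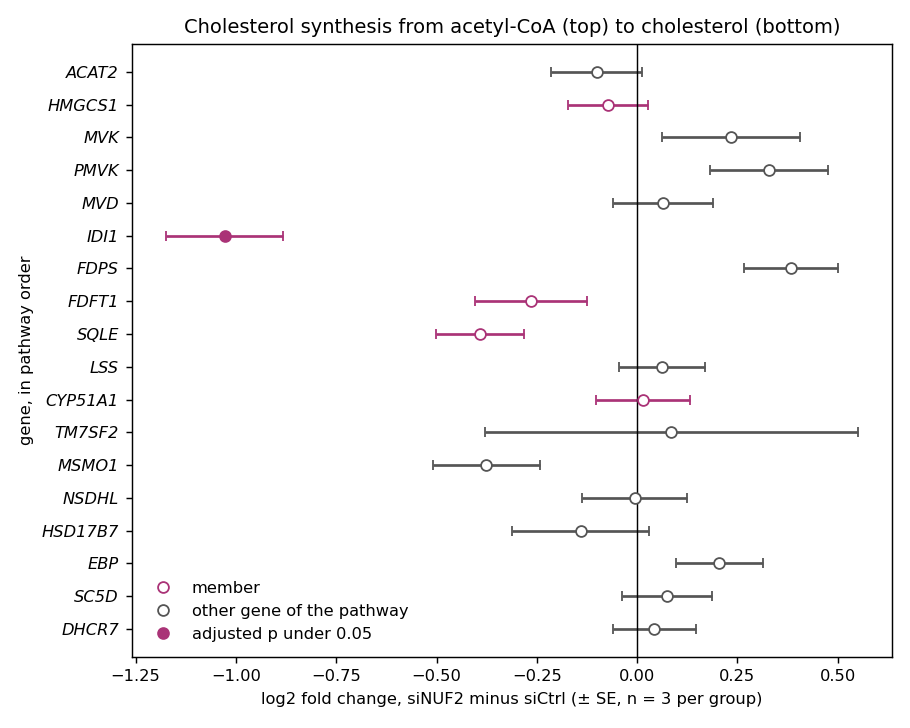
Log2 fold change (siNUF2 minus siCtrl, x axis, ± SE) of 18 genes of cholesterol synthesis in pathway order (y axis). IDI1 at -1.03 is the only filled point (adjusted p under 0.05), and PMVK and FDPS, before and after it in the pathway, lie on the other side of 0 at 0.33 and 0.38 without passing the test.

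FDPS and PMVK had values of the other sign from IDI1 and did not pass the test. FDPS, which joins the products of IDI1 into farnesyl diphosphate, had 23.0, 18.4 and 21.7 FPKM in siCtrl and 26.2, 29.6 and 25.4 FPKM in siNUF2 (log2 fold change 0.38 ± 0.12, SE, adjusted p = 0.137, edgeR). PMVK, an earlier kinase of the mevalonate arm, stood at 0.33 ± 0.15 (log2, adjusted p = 0.290). MSMO1, which removes methyl groups after CYP51A1, stood at -0.38 ± 0.13 on the same scale (adjusted p = 0.188).

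Among 7 genes of SREBP processing and sensing, 1 rose and 1 fell, against 1.53% and 2.46% of all genes tested. These were the 2 proteases. MBTPS1, the site-1 protease that makes the first cut in SREBP2, had 9.12, 8.80 and 8.47 FPKM in siCtrl and 13.5, 12.7 and 12.2 FPKM in siNUF2. It rose, with a log2 fold change of 0.56 ± 0.09 (SE, adjusted p = 0.0145, edgeR). MBTPS2, the site-2 protease that makes the second cut, had 3.75, 3.68 and 3.60 FPKM in siCtrl and 2.22, 2.35 and 2.54 FPKM in siNUF2. It fell by 0.61 ± 0.11 on the log2 scale (adjusted p = 0.0261).

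Neither protease had groups that overlapped, and each moved the same way in all 3 numbered pairs. Both calls were near the threshold. Without 1 library the adjusted p of MBTPS1 was 0.0373 to 0.0718, and it passed only without siNUF2 library 2 or 3. That of MBTPS2 was 0.0572 to 0.102, so its call needed all 6 libraries. MBTPS2 overlaps YY2 on the same strand (mean 2.06 FPKM), and MBTPS1 overlaps AC040169 (0.458 FPKM). SCAP (log2 fold change 0.21, adjusted p = 0.369), INSIG2 (0.01, 0.981) and SREBF1 (0.19, 0.865) did not pass the test.

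**Figure D3:**
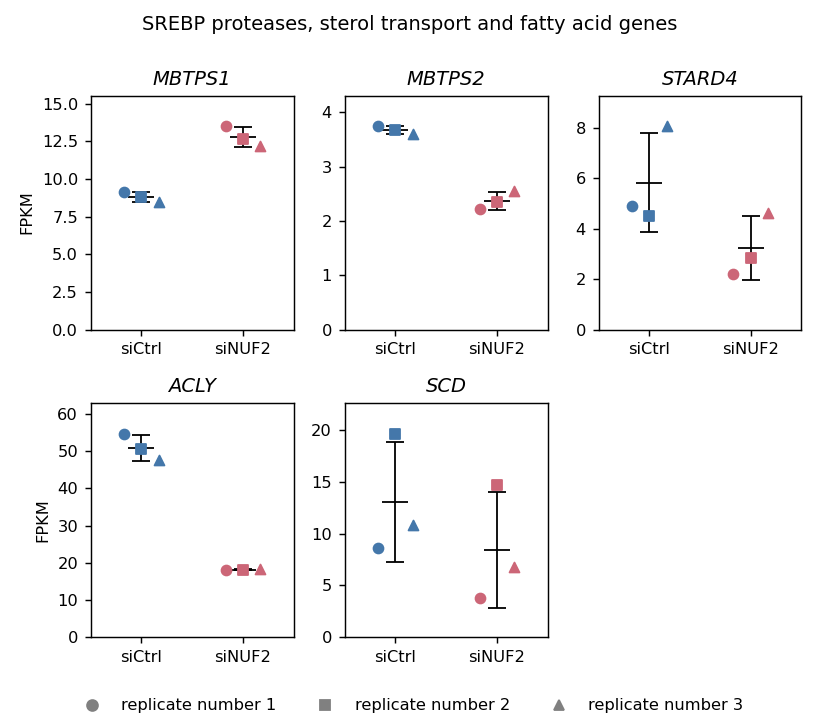
FPKM of 5 genes around the pathway in each library (points, shaped by replicate number), with the group mean and SD (n = 3). MBTPS1 is higher and MBTPS2 and ACLY are lower in every siNUF2 library, and STARD4 and SCD overlap between the groups but are lower in siNUF2 within each replicate number.

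Uptake and transport of sterols were covered by 6 genes, and none passed the test in the fit without the block (edgeR). STARD4, a carrier of cholesterol between membranes, had 4.92, 4.52 and 8.08 FPKM in siCtrl and 2.21, 2.86 and 4.64 FPKM in siNUF2. The groups overlapped, but library 3 was the highest in both, and siNUF2 was lower in each of the 3 numbered pairs. The log2 fold change was -0.83 ± 0.31 (adjusted p = 0.217), and with the block it was -0.85 (adjusted p = 0.00615). STARD4 is a known target of SREBP2. TMEM97, a sterol-regulated membrane protein, had the highest value of the 6 at 0.19 ± 0.12 (log2, adjusted p = 0.485).

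Of the 8 genes of fatty acid synthesis, 7 were tested and 1 fell, against 2.46% of all genes tested. ACLY, which splits citrate into the acetyl-CoA used by both pathways, had 54.7, 50.5 and 47.8 FPKM in siCtrl and 18.0, 18.1 and 18.4 FPKM in siNUF2. The groups were far apart beside their spread. ACLY fell by 1.47 ± 0.09 on the log2 scale (SE, adjusted p = 7.34e-04, edgeR), and the adjusted p without any 1 library was 0.00364 to 0.00865. ACACA, the carboxylase that acts next, had the highest value of the list at 0.13 ± 0.20 (log2, adjusted p = 0.790). FASN, the fatty acid synthase, differed by 0.04 ± 0.11 (log2, adjusted p = 0.876). SCD, the desaturase that makes oleate, had 8.62, 19.7 and 10.9 FPKM in siCtrl and 3.83, 14.7 and 6.75 FPKM in siNUF2, with library 2 the highest in both groups. Its adjusted p was 0.587, and 0.0144 with the block (log2 fold change -0.73).

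Turnover of regulated enzymes such as squalene epoxidase was covered by 3 genes, of which none passed the test without the block (edgeR). SYVN1, a ubiquitin ligase of the endoplasmic reticulum, stood at -0.35 ± 0.13 (log2, adjusted p = 0.216, and 0.0413 with the block). MARCHF6, the ligase of squalene epoxidase, was at -0.03 ± 0.14, and RNF139, another ligase of the endoplasmic reticulum, was highest of the 3 at 0.07 ± 0.12 (adjusted p = 0.833). Of 11 genes of LXR, efflux and oxysterols only 2 had a mean of at least 1 FPKM. NR1H2, which encodes LXRβ, stood at 0.38 ± 0.12 (log2, adjusted p = 0.149, and 0.0200 with the block). The other, MYLIP, stood at 0.53 ± 0.72 (adjusted p = 0.766), and with 1 library left out it ran from -0.14 to 1.68, so no direction is given. ABCA1 and ABCG1, the exporters that LXR controls, stayed at or under 0.529 FPKM.

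The second comparison asked whether expression differed between replicate numbers, with the siRNA in the model. None of the 7 members passed, against 7.60% of all genes tested (edgeR), and none passed with DESeq2 or with limma. At an unadjusted p under 0.05 there was 1 member, against 3177 of the 11725 genes tested (edgeR). With so few members, these counts do not set them apart from other genes. SREBF2 was nearest, with library 2 higher than library 1 by 0.29 ± 0.08 (log2, SE), and an adjusted p of 0.115 over the 3 numbers. The median distance between the highest and the lowest number (log2) was 0.14 over the members and 0.27 over all genes tested. These medians were not matched for level, and the genes tested go down to a mean of 1 FPKM.

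Some other sterol and lipid genes differed between numbers. Outside the interferon genes, 7 of 50 list genes tested passed, against 7.60% of all genes tested. Within both groups 5 of them were highest in library 2 and 2 in library 3. The test favours genes whose pattern over numbers is shared by both groups, so this likeness follows from the selection. The same holds for the interferon genes above. SREBF1, which encodes SREBP1, had 1.71, 3.44 and 2.69 FPKM in siCtrl and 1.60, 4.96 and 2.25 FPKM in siNUF2 (adjusted p = 0.0211, edgeR). SCD (adjusted p = 0.00653), TM7SF2 (a sterol reductase, 0.0292), MYLIP (a ubiquitin ligase that LXR controls, 0.0105) and ACACA (0.0171) were highest in library 2 as well. Among the genes under the filter, ABCA1 was at 0.529 and 0.438 FPKM in library 2 of siCtrl and siNUF2 and at or under 0.134 FPKM in the other 4 libraries, with no test.

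The genes highest in library 3 were STARD4 (adjusted p = 0.0248, edgeR) and NPC2. NPC2, which hands cholesterol to NPC1 in lysosomes, had 21.3, 14.1 and 32.0 FPKM in siCtrl and 16.7, 16.1 and 30.6 FPKM in siNUF2 (adjusted p = 0.0115). What a number shares (a day, a culture or a preparation) is not given, so its part was not tested.

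**Figure D4:**
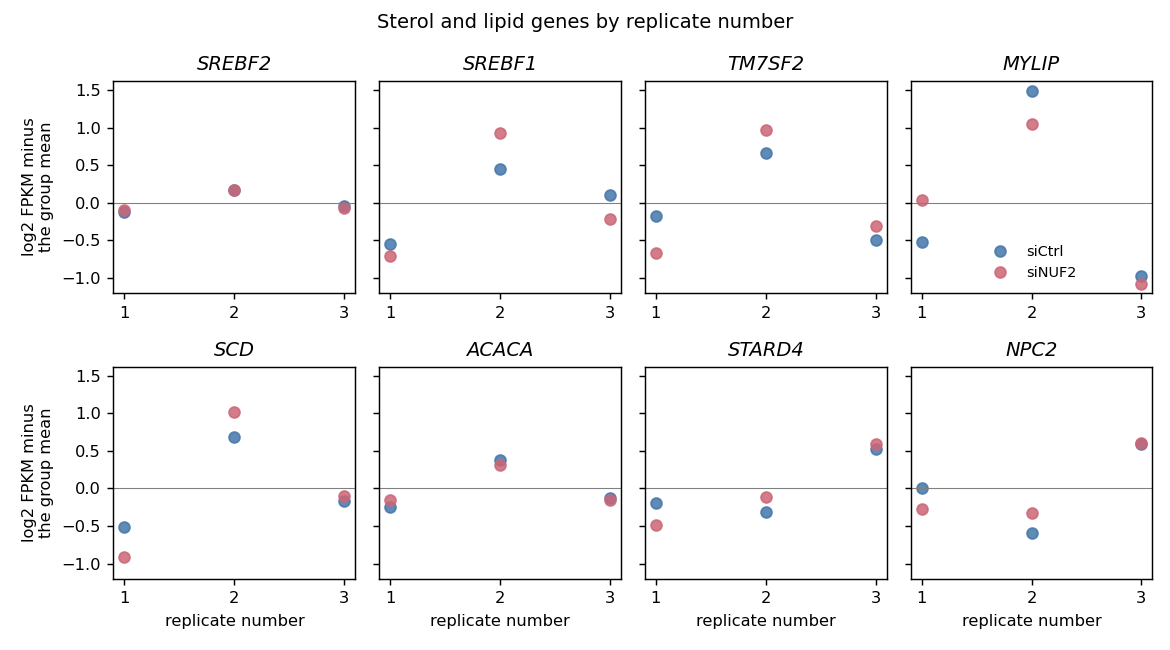
Log2 FPKM minus the mean of its group (y axis) against replicate number (x axis) for SREBF2 and the 7 sterol and lipid genes outside the interferon list that differed between numbers. SREBF1, TM7SF2, MYLIP, SCD and ACACA are highest in library 2 of both groups, and STARD4 and NPC2 in library 3. SREBF2 is also highest in library 2 of both groups and did not pass the test over numbers.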

How the data were processed

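Poly(A) RNA of 8505C cells was sequenced in 6 libraries, grouped by the sample labels (3 siCtrl, 3 siNUF2). According to the submitters' processing notes and the study's methods, the authors used fastp, HISAT2 (GRCh38) and StringTie. Versions, annotation release, strand setting and the counting tool are not given in the sources used here. The authors deposited FPKM, scaled by length and depth, and whole-number counts per gene without normalization, and all 12 columns were used.

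Genes that averaged 1 FPKM or more were tested on the counts with TMM scaling and the quasi-likelihood test of edgeR 4.0.16 (R 4.3.3), with Benjamini-Hochberg adjustment over all 11725 genes. One fit compared the siRNAs, and another tested replicate number (2 degrees of freedom) with the siRNA in the model. Replicate numbers were checked for pairing by correlating deviations from the group means. These correlated at 0.313 to 0.431 for the same number in both groups, so the numbers pair the libraries. For unlike numbers they were at -0.276 to -0.138, which follows in part from centring each group and is no separate evidence. The fit without the block stayed the main one, since the study's methods name no block. That fit does not use the pairing, and its common dispersion was 0.0452, against 0.0218 with the block. Genes that passed only with the block are therefore not shown to be unchanged. Replicate counts differed beyond counting error (a chi-square of 90.1 to 132 for each degree of freedom). An exact permutation test of 3 against 3 could not go below p = 0.1. Alternatives used DESeq2 1.42.0, limma 3.58.1, other filters, size factors, an F-test on log2(FPKM + 1), the replicate block and left-out libraries. The fits were tested on simulated data.

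The text names the members, the central SREBP genes and NUF2, and the list genes past the threshold or at a list's extremes. It also names list genes that pass only with the block, and the genes most and least like the mean of the members. Members and lists were chosen with earlier results of these data known, so their counts beside the shares over all genes are descriptive. A few genes are not reported here and were left out of the lists and their counts.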

Additional observations from a re-analysis of the deposited data

How the results depend on the processing

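IDI1 kept its direction in every fit, and its adjusted p was 0.0863 in the F-test on log2(FPKM + 1). The count of cholesterol synthesis genes that differed with the siRNA (1) was 2 with DESeq2, 2 with the replicate block and 0 with that F-test, and with libraries left out it was 0 to 1. The count over all genes (468) was 188 with no filter, 972 with DESeq2, 78 with the F-test and 1705 with the replicate block, and 124 to 251 with 1 library left out. Without number 1, 2 or 3 in both groups, which leaves 2 libraries a group, it was 0 (1223 genes at an unadjusted p under 0.05), 47 and 39. For replicate number, the count of cholesterol synthesis genes (1) was 0 with no filter, 0 with a mean FPKM of at least 5, where TM7SF2 was not tested, and 0 to 1 with a library left out. Over all genes (891) it was 0 with no filter (3676 at an unadjusted p under 0.05), 2128 with DESeq2 and 606 to 1288 with a library left out. The cause was not tested. Log2 fold changes near 0 changed sign: CYP51A1 was -0.00565 with a mean FPKM of at least 5, -0.00463 in limma and in the F-test on log2(FPKM + 1), -0.00504 in limma on log2(FPKM + 0.1) and -0.0519 to 0.0780 with 1 library left out, with -0.0548 and -0.0290 without number 1 or 3 in both groups. SREBF2 was -0.0986 to 0.0858 with 1 library left out and 0.00740 without number 3. The paired fit with the block changed no call of a named gene other than those given. Without number 1, 2 or 3 in both groups the adjusted p of IDI1 was 0.174, 0.0711 and 0.0720, and without number 1 that of ACLY was 0.0577. MBTPS2 had an adjusted p of 0.0699 with no filter, and MBTPS1 and MBTPS2 had 0.0567 and 0.0515 in the F-test. Without siCtrl or siNUF2 library 3, the adjusted p of STARD4 over numbers was 0.0628 and 0.134. Without siCtrl or siNUF2 library 2, that of TM7SF2 was 0.0537 and 0.126. Without siNUF2 library 2 that of SREBF1 was 0.0522, and without siCtrl library 2 that of MYLIP 0.0519. Depth limits CH25H, with at most 4 counts a library, and the exporters and oxysterol enzymes under 1 FPKM.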

Other observations

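Branches that leave the pathway after IDI1 were also read. Of 5 genes of the isoprenoid branch none passed the test between siNUF2 and siCtrl without the block (edgeR). With the replicate block 1 was higher and 1 lower, against 14.5% of all genes tested in either direction. PDSS2, a subunit of the synthase of the ubiquinone tail, had 2.70, 3.31 and 3.18 FPKM in siCtrl and 5.48, 4.11 and 4.42 FPKM in siNUF2 (log2 fold change 0.63 ± 0.16, SE, adjusted p = 0.0852, and 0.0433 with the block). NUS1, a subunit of the enzyme that makes dolichol, had 15.5, 14.4 and 16.0 FPKM in siCtrl and 12.4, 9.84 and 13.2 FPKM in siNUF2 (log2 fold change -0.35 ± 0.12, adjusted p = 0.180, and 0.0242 with the block). GGPS1, which makes geranylgeranyl diphosphate, was at -0.06 ± 0.13. Of 3 genes of sterol esterification 2 were tested. SOAT1, the esterifying enzyme, stood at -0.01 ± 0.19, and NCEH1, a hydrolase of cholesterol esters, stood at -0.26 ± 0.11 (log2, adjusted p = 0.270, and 0.0427 with the block).

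The mean of the standardised log2 CPM of the 7 tested members was compared with 11718 other genes over the 6 libraries. This mean was 0.59 in siCtrl library 2, the highest, and -0.49 in siNUF2 library 1, the lowest. The members correlated with each other at a median of 0.02 (range -0.84 to 0.91). Likeness to their mean is therefore not likeness to each member. The genes most like the mean were KCTD3 (Pearson r = 0.98), ZNF550, FOXO1, PDE7A, PPHLN1, RHOT1, PAK2, ZNF222, ITPRID2 and PHF6 (r = 0.94). The least like the mean were NOC2L (r = -0.98), AP2A1, POP4, KIAA1143P1 and GAGE12G (r = -0.96). None of these 15 genes passed the test between siNUF2 and siCtrl (edgeR, adjusted p of 0.192 or more). Among the other cholesterol synthesis genes, MSMO1 had the highest r (0.84, rank 161) and FDPS the lowest (-0.77, rank 11177). With 6 libraries and so many genes, correlations of this size describe these libraries only.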
